A study of Homo sapiens with 30 samples.

Results

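The 3 genes described here are POU3F1, POU3F2 and POU3F3, which encode POU class 3 transcription factors of the developing nervous system. Their chromatin was followed in 10 lists of ATAC-seq peaks, intervals of DNA open to the Tn5 transposase. Overlapping peaks of the 10 lists, by at least 1 bp, were joined to give 493444 regions. A list with a peak in a region was taken as open there. The members are the 297 of these regions that overlap the body of 1 of the 3 genes or the 200 kb on either side of it. POU3F1 has 106 of them, POU3F2 has 78 and POU3F3 has 113.

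The cells were wild-type H1, an established human embryonic stem cell line, and all groups come from this 1 line. Undifferentiated cells (hPSC) were taken on day 0. Definitive ectoderm (DE) was taken on day 1, after treatment with A8301 at 1 µM, trametinib at 250 nM, C59 at 1 µM and LDN193189 at 100 nM. DE was then replated with A8301 at 1 µM, LDN193189 at 100 nM and thiazovivin at 1 µM, and taken on day 2. Anterior neural ectoderm (aNE) received C59 at 1 µM as well. Posterior neural ectoderm (pNE) received TTNPB at 50 nM, FGF2 at 20 ng/mL and XAV939 at 1 µM instead. Each was also changed to 1 of 3 media, for telencephalon, midbrain or hindbrain, and collected on day 4. These groups are aNE_T, aNE_M and aNE_H or pNE_T, pNE_M and pNE_H, named by origin and medium. The recipes of the 3 day 4 media were not used here. TTNPB activates retinoic acid receptors, C59 blocks WNT secretion, XAV939 inhibits tankyrase, trametinib inhibits MEK, and A8301 and LDN193189 inhibit TGF-beta and BMP receptors. Cultures kept past day 2 were plated more densely in the posterior than in the anterior protocol, so plating density goes with origin in the day 4 groups.

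The labels describe 3 biological replicates of each group, but the data are 1 list of peak positions per group. No value below therefore has a replicate error, no test was made, and each difference is one between lists. The lists had from 157709 open regions in aNE to 300729 in pNE_H, and their read depth is unknown. The narrowest peak measured 122 to 126 bp in the aNE-derived and 109 to 115 bp in the pNE-derived lists. This difference, plating density and origin go together on day 4 and cannot be told apart. In the table of promoters the neural ectoderm markers SOX1, SOX2, ZIC1 and NES had a peak in all 10 lists. PAX6 had none in aNE_H and pNE_M, and HES5 none in aNE_H. Of the pluripotency markers 3 of 6 were in that table, and NANOG had no promoter peak in aNE_M, aNE_H or any pNE-derived list. The other 2 pluripotency markers had a promoter peak in all 10 lists. Of the mesendoderm markers 3 of 4 in the table had a peak in all lists, and TBXT in none. Of 3 surface ectoderm and neural crest markers in the table TFAP2A lacked a peak in aNE, pNE, the aNE-derived lists and pNE_T. It had one in hPSC, DE, pNE_M and pNE_H, and the other 2 markers had one in all 10 lists. The part of other cell types in the results was not tested. A promoter peak does not show that a gene is transcribed, and hPSC also had peaks at all 6 neural markers.

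POU class 3 factors bind the octamer and related sites through a POU-specific domain joined to a homeodomain, often next to SOX proteins. POU3F2, also called BRN2, and POU3F3, also called BRN1, act together in neural progenitors and in upper-layer cortical neurons. POU3F1, also called OCT6, acts in the epiblast, in early neural commitment and later in myelinating Schwann cells. Their coding sequences have no introns, long noncoding RNAs lie beside them, and distal elements around them are known to carry part of their control.

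The promoters are shown because each of them carried a peak in every list. The sequences are the 250 bases before the RefSeq start of transcription on GRCh38.p14, 5′ to 3′ on the strand of the gene. All 3 genes were matched. Capitals mark CCAAT, the letters of the CCAAT box, which was picked out after the sequences had been read.
POU3F1, chr1:38046794-38047043, minus strand: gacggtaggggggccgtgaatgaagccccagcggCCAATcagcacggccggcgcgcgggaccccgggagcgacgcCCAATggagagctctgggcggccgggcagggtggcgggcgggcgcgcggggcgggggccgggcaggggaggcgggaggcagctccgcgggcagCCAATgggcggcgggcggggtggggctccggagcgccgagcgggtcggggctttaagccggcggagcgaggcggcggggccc
POU3F2, chr6:98834324-98834573, plus strand: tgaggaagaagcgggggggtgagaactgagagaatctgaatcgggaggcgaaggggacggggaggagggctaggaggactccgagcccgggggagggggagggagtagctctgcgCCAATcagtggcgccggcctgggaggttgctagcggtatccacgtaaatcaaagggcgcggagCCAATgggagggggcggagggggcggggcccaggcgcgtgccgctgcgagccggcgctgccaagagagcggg
POU3F3, chr2:104853865-104854114, plus strand: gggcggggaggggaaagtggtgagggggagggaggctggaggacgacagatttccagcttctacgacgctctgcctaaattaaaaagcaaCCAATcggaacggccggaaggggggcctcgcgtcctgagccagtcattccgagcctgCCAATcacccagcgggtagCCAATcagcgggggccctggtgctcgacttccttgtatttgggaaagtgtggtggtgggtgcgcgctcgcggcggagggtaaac

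CCAAT was found 3 times in the POU3F1 promoter, 2 times in that of POU3F2 and 3 times in that of POU3F3, with both strands searched. The related POU3F4, on chromosome X, had 3 matches. Of 35116 RefSeq promoters of this length 32.0% held at least 1 match, 9.53% at least 2 and 2.93% at least 3. Counted from the start of transcription, the nearest match began at base -82 in POU3F1, -72 in POU3F2 and -84 in POU3F3. GC content was 80.8% in POU3F1, 69.2% in POU3F2 and 62.0% in POU3F3, against a median of 58.0% over all promoters. None of the 3 windows held the octamer ATGCAAAT, the SOX core ACAATGG, the OTX core TAATCC or the homeodomain core TAATTA on either strand. These occur in 1.63%, 2.62%, 5.62% and 4.35% of promoters. Nor did any hold the retinoic acid receptor site made of AGGTCA repeated after 5 bases, which was found in 0.00285% of promoters. These are matches of letters in a window and say nothing of binding.

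The promoters themselves were open throughout. In every list the promoter of each gene, from 250 bases before to 50 after the start, lay wholly inside 1 peak. At POU3F1 that peak was 1471 bp wide in hPSC, 982 in DE, then 1391 in aNE against 992 in pNE. On day 4 it was 1254 bp in aNE_T, 1593 in aNE_M, 1036 in aNE_H, 988 in pNE_T, 896 in pNE_M and 1100 in pNE_H. The POU3F1 peak was widest in aNE_M and narrowest in pNE_M, and the ranges of the lists from both origins overlapped.

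At POU3F2 the promoter peak was 1185 bp in hPSC, 692 in DE, then 1173 in aNE against 1206 in pNE. On day 4 it was 1253 bp in aNE_T, 1257 in aNE_M, 1227 in aNE_H, 1279 in pNE_T, 1247 in pNE_M and 1264 in pNE_H. Apart from DE, the POU3F2 peak kept nearly the same width in every list. A second region over the POU3F2 body, chr6:98835162-98836474, was also open in all 10 lists.

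At POU3F3 the promoter peak was 1254 bp in hPSC, 690 in DE, then 1529 in aNE against 1506 in pNE. On day 4 it was 1553 bp in aNE_T, 1940 in aNE_M, 1965 in aNE_H, 596 in pNE_T, 1322 in pNE_M and 1983 in pNE_H. This was the peak that varied most among the 3, from 596 bp in pNE_T to 1983 bp in pNE_H. DE had the narrowest of the 10 promoter peaks at POU3F2, and at POU3F3 only pNE_T was narrower than DE. Peak width moves with the settings of the peak caller, which are not given in the sources used here.

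**Figure D1:**
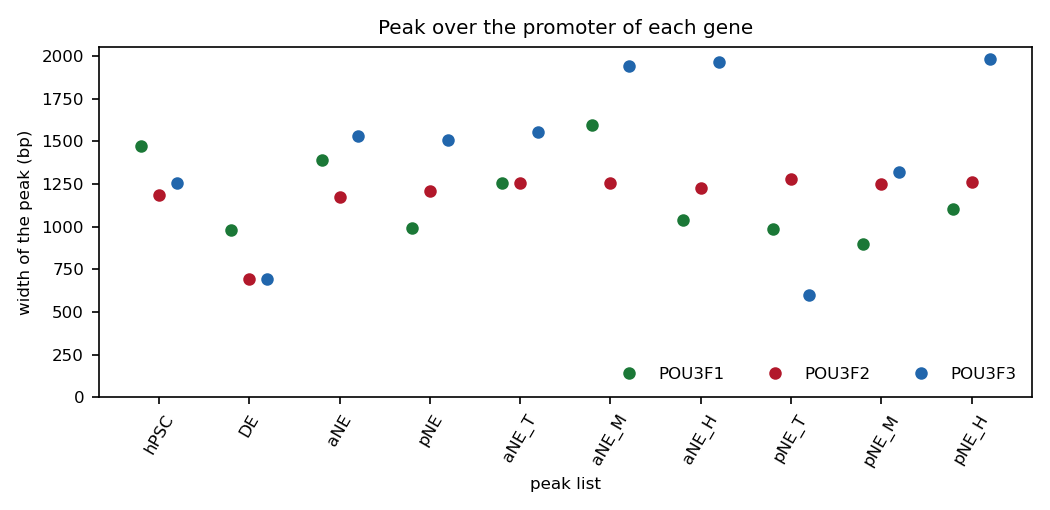
Width in bp (vertical axis) of the peak over the promoter of POU3F1 (green), POU3F2 (red) and POU3F3 (blue) in each of the 10 peak lists (horizontal axis), 1 point per list. Every list has a peak at every gene, POU3F2 stays between 1173 and 1279 bp outside DE, and POU3F3 ranges from 596 to 1983 bp.

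The surroundings of the 3 genes differ. POU3F1, gene 5453, lies at chr1:38043829-38046793 on the minus strand of GRCh38, and its window also takes in MTF1, INPP5B, SF3A3, FHL3 and UTP11. It had 26.3 regions per 100 kb. POU3F2, gene 5454, lies at chr6:98834574-98839458 on the plus strand, and shares its window with FBXL4, a mitochondrial F-box gene, and the long noncoding RNA PNKY. It had 19.3 regions per 100 kb, and 65 of its 78 regions lay outside any annotated gene. POU3F3, gene 5455, is annotated at chr2:104853276-104927773 on the plus strand, with PANTR1 on one side, MRPS9 on the other, and 23.8 regions per 100 kb. By distance to a gene, 72 regions of POU3F1, 52 of POU3F2 and 81 of POU3F3 lay nearer to it than to any other protein-coding gene. The gene table has no exons, so exon and intron were not separated.

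Open in all 10 lists were 30 of the 106 POU3F1 regions (28.3%), 17 of the 78 POU3F2 regions (21.8%) and 20 of the 113 POU3F3 regions (17.7%). Over all regions 16.5% were. The Wilson 95% interval, which covers the counting of regions only, was 20.6% to 37.5% for POU3F1, 14.1% to 32.2% for POU3F2 and 11.8% to 25.8% for POU3F3. Of the 3 intervals that of POU3F1 alone lay above the share over all regions. At POU3F1, 13 of the 30 such regions lay within 1 kb of the start or the end of an annotated gene. Only 16 of the 30 had POU3F1 as the nearest protein-coding gene. Among regions nearest to the gene, 16 of 72 (22.2%) were open in all lists at POU3F1, against 28.8% at POU3F2 and 18.5% at POU3F3. With all 10 lists open the median region was 1024 bp wide at POU3F1, 865 at POU3F2 and 979.5 at POU3F3. Regions open in 1 list had medians of 164, 157.5 and 158 bp. There were 25, 20 and 34 of these, or 23.6%, 25.6% and 30.1% of the regions of each gene, against 33.5% of all regions.

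Regions open in pNE_H alone numbered 6 at POU3F1, 7 at POU3F2 and 10 at POU3F3, with 10.6% over all regions, and in pNE_T alone 1, 3 and 4 (3.45%). In pNE_M alone they numbered 4, 2 and 3 (3.62%), in DE alone 8, 2 and 4 (5.46%), and in hPSC alone 3, 4 and 5 (4.63%). The aNE-derived lists had 0, 0 and 2 in aNE_T alone (1.28%), 0, 1 and 3 in aNE_M alone (1.28%) and 3, 0 and 3 in aNE_H alone (1.83%). No region of the 3 genes was open in aNE alone (0.512% over all regions), and 1, at POU3F2, was open in pNE alone (0.830%). Both shares lay inside the intervals of the 3 genes.

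The constant regions include wide distal ones. At POU3F2, chr6:98824020-98825680 was 9.72 kb upstream of the start and 1661 bp wide, and chr6:98844844-98846044 was 10.9 kb downstream and 1201 bp wide. The latter had peaks of between 1073 and 1177 bp in all 10 lists. At POU3F3, chr2:104842348-104843787 lay 11.0 kb upstream inside PANTR1, and chr2:104872071-104874107 lay 19.0 kb downstream inside the annotated body. The peak in the latter was 1803 bp in pNE, 1901 in aNE_T and 1780 in aNE_M, and between 792 and 1046 bp in the other 7 lists. At POU3F1, chr1:38028346-38029914 was open in all lists 17.7 kb downstream, outside any annotated gene, with peaks of 588 bp in pNE_H to 1551 bp in aNE_T.

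The map of open regions shows these constant regions as full columns and the gene-specific patterns described next in colour.

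**Figure D2:**
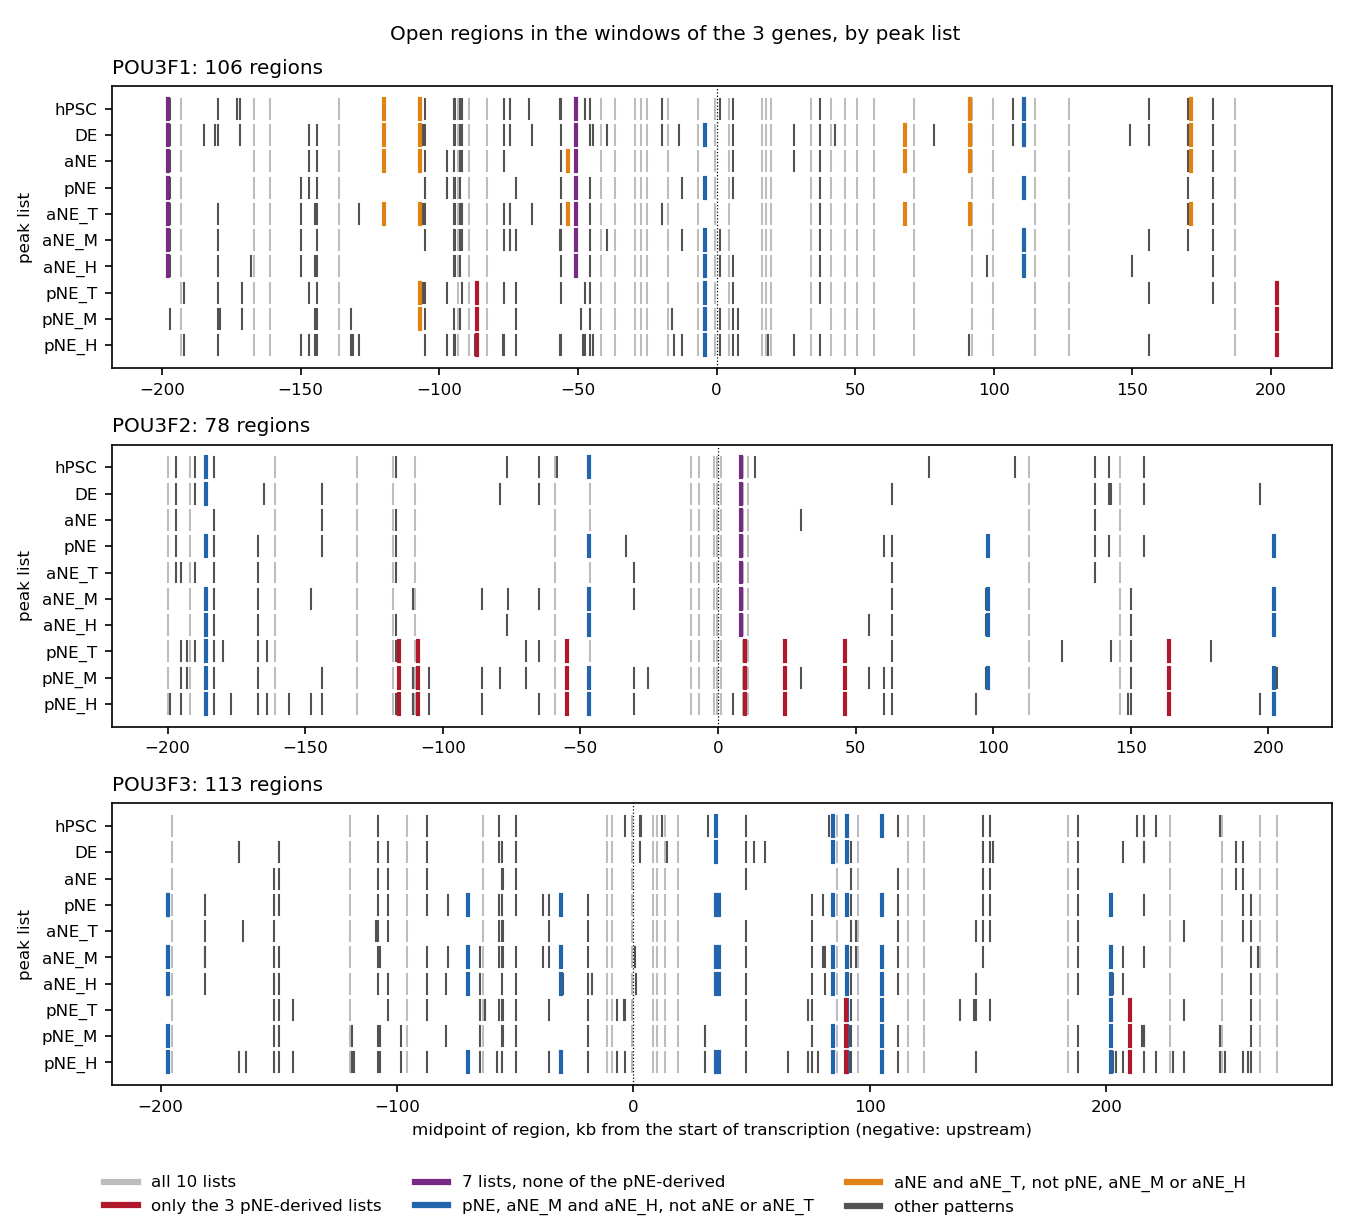
Open regions in the windows of POU3F1, POU3F2 and POU3F3 (panels), with the distance of the region midpoint from the start of transcription in kb (horizontal axis, negative is upstream) and the 10 peak lists as rows. Each tick is a region open in that list, grey where all 10 lists are open. POU3F2 has 7 red columns open only in the 3 pNE-derived lists, POU3F3 has 9 blue columns open in pNE, aNE_M and aNE_H but not in aNE or aNE_T, and POU3F1 has 6 orange columns of the opposite pattern.

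The number of open regions at POU3F1 was 62 in hPSC, 72 in DE, then 53 in aNE against 51 in pNE. On day 4 it was 59 in aNE_T, 56 in aNE_M, 51 in aNE_H, 52 in pNE_T, 51 in pNE_M and 66 in pNE_H. DE was highest, and the day 4 lists of both origins overlapped. Since longer lists hold more regions, the number was also divided by the open regions of each list. Per 10000 open regions POU3F1 had between 2.66 and 3.14 in the aNE-derived and between 2.19 and 2.55 in the pNE-derived lists, which do not overlap. By count, none of the 3 genes had every aNE-derived list above every pNE-derived list, an order found at 0.344% of protein-coding genes. Per 10000 open regions, 31.6% of 20037 protein-coding genes had every aNE-derived list above every pNE-derived list, so this order is common.

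The POU3F2 window had 33 open regions in hPSC, 31 in DE, then 24 in aNE against 33 in pNE. Day 4 brought 27 for aNE_T, 33 for aNE_M and 30 for aNE_H, against 40 in pNE_T, 48 in pNE_M and 50 in pNE_H. By count the pNE-derived lists were all above the aNE-derived lists, and above hPSC, DE and both day 2 lists. Per 10000 open regions the aNE-derived lists had 1.44 to 1.6 and the pNE-derived lists 1.66 to 2.37. On that scale pNE_H, at 1.66, was below pNE at 1.71 and close to hPSC at 1.65, while DE had 1.34 and aNE 1.52. The same order, every pNE-derived above every aNE-derived list, was found at 10.8% of protein-coding genes by count and at 6.03% per 10000 open regions. By count, of the pNE-derived lists, pNE_M and pNE_H, which have the TFAP2A promoter peak, had more POU3F2 regions than pNE_T. Per 10000 open regions pNE_T, at 1.96, lay between pNE_M at 2.37 and pNE_H at 1.66. The hPSC and DE lists also have the TFAP2A peak, with 33 and 31 POU3F2 regions. Any link between the TFAP2A promoter peak and the POU3F2 counts was not tested. The covered length at POU3F2 was 12696 to 15506 bp in the aNE-derived and 16285 to 22545 bp in the pNE-derived lists.

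The POU3F3 window had 43 open regions in hPSC, 46 in DE, then 36 in aNE against 52 in pNE. Day 4 brought 43 for aNE_T, 59 for aNE_M and 53 for aNE_H, and 51 in pNE_T, 51 in pNE_M and 74 in pNE_H. Lists of both origins overlapped. Per 10000 open regions the order from low to high was DE at 1.99, hPSC at 2.15, aNE at 2.28 and aNE_T at 2.29. Then came pNE_H at 2.46, pNE_T at 2.50, pNE_M at 2.52, pNE at 2.69, aNE_H at 2.76 and aNE_M at 2.87. The high count of pNE_H at POU3F3 thus went with the length of that list, while aNE_M and aNE_H stayed above aNE_T on both scales.

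**Figure D3:**
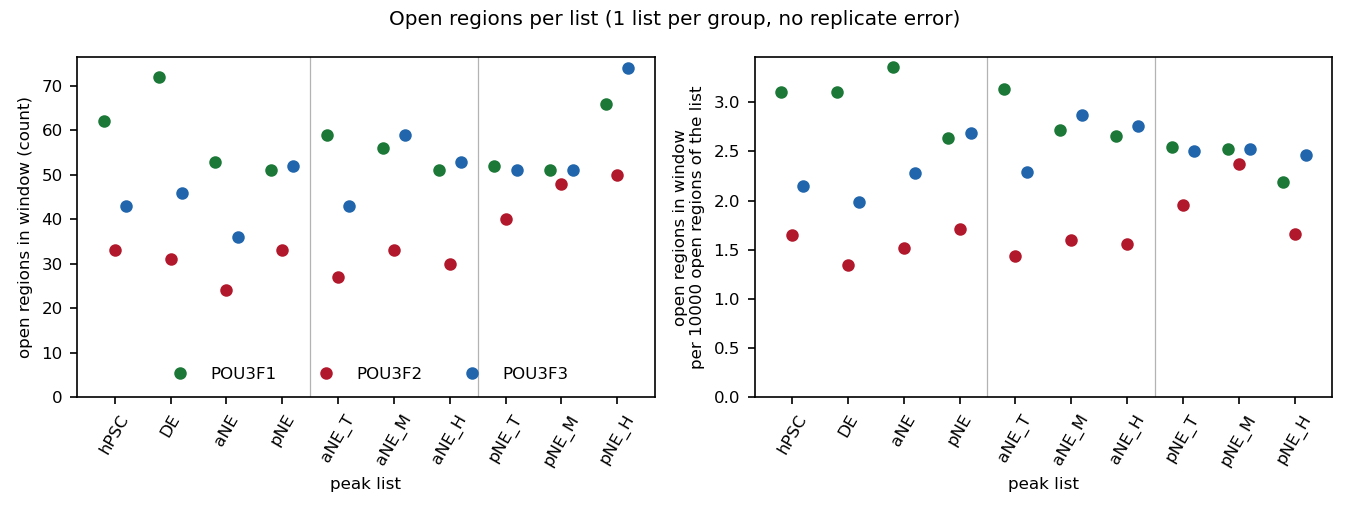
Open regions in the window of POU3F1 (green), POU3F2 (red) and POU3F3 (blue) in each peak list, as a count (left) and per 10000 open regions of the list (right), 1 point per list. POU3F2 is higher in the 3 pNE-derived lists, at 40 to 50 regions, than in the 3 aNE-derived lists, at 27 to 33.

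The first steps, from hPSC to DE and from DE to day 2, were compared next. From hPSC to DE, regions open in DE alone of the pair made up 18 of 80 at POU3F1 (22.5%), 6 of 39 at POU3F2 (15.4%) and 13 of 56 at POU3F3 (23.2%), against 27.2% of all regions open in either list. Regions open in hPSC and not DE made up 8, 8 and 10, against 15.8% of all regions. From DE to aNE, 2 of 74 regions were gained at POU3F1, 3 of 34 at POU3F2 and 3 of 49 at POU3F3, beside 6.75% of all regions. The regions lost in that step were 21, 10 and 13, or 28.4%, 29.4% and 26.5%, with 36.4% over all regions.

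From DE to pNE the genes differed more. POU3F1 gained 4 of 76 regions (5.26%, interval 2.07% to 12.8%), POU3F2 gained 8 of 39 (20.5%, 10.8% to 35.5%) and POU3F3 gained 16 of 62 (25.8%, 16.6% to 37.9%). Over all regions 17.4% were gained. The losses were 25 at POU3F1 (32.9%), 6 at POU3F2 (15.4%) and 10 at POU3F3 (16.1%), with 31.1% over all regions. Against these shares POU3F1 gained few regions, and POU3F2 and POU3F3 lost few.

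The day 2 lists were then set side by side. At POU3F3, 19 of the 55 regions open in either list were open in pNE and not aNE (34.5%, interval 23.4% to 47.7%), and 3 were open in aNE and not pNE (5.45%). At POU3F2 there were 10 of 34 (29.4%, 16.8% to 46.2%) and 1 (2.94%). At POU3F1 there were 7 of 60 (11.7%, 5.77% to 22.2%) and 9 (15.0%). Over all regions 28.5% were open in pNE only of this pair and 12.4% in aNE only. The pNE-only shares of POU3F2 and POU3F3 thus lay near that of all regions, and that of POU3F1 lay below it.

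The widest such peaks, among those more than 1 kb from the start or the end of any annotated gene, were distal. At POU3F3 the widest pNE peak absent from aNE was at chr2:104823281-104823733, 30.6 kb upstream and inside PANTR1. Its peak was 380 bp in pNE, 315 in aNE_M, 258 in aNE_H and 333 in pNE_H, and the other 6 lists had none. At POU3F2 it was chr6:98648387-98648938, 186 kb upstream, closed in aNE and aNE_T and open in the other 8 lists. At POU3F1 it was chr1:38092293-38092831, 45.8 kb upstream in MIR3659HG, where aNE was the only closed list. In the opposite direction POU3F3 had a region with a peak in all lists but pNE, chr2:104901087-104902056, 47.5 kb downstream in its annotated body. Its peaks were 598 bp in pNE_T, 576 in pNE_M and 970 in pNE_H, and 126 to 401 bp in the other 6 open lists.

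Day 2 was next compared with day 4 in each medium. These comparisons share the aNE or the pNE list, so their values are given side by side. From aNE, POU3F3 gained 11 of 47 regions in aNE_T (23.4%), 27 of 63 in aNE_M (42.9%) and 22 of 58 in aNE_H (37.9%), with 25.5%, 32.8% and 31.7% over all regions. POU3F2 gained 5 of 29 (17.2%), 14 of 38 (36.8%) and 10 of 34 (29.4%). POU3F1 gained 10 of 63 (15.9%), 13 of 66 (19.7%) and 11 of 64 (17.2%). Losses from aNE over all regions were 11.4%, 12.4% and 16.9%. POU3F1 lost 6.35%, 15.2% and 20.3%, POU3F2 lost 6.90%, 13.2% and 11.8%, and POU3F3 lost 8.51%, 6.35% and 8.62%.

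From pNE, POU3F2 gained 18 of 51 regions in pNE_T (35.3%), 22 of 55 in pNE_M (40.0%) and 24 of 57 in pNE_H (42.1%), with 26.0%, 24.7% and 41.1% over all regions. POU3F3 gained 22.4%, 22.4% and 36.6%, and POU3F1 gained 17.7%, 19.0% and 30.1%. Of these 9 gains, only that of POU3F2 in pNE_M had an interval, 28.1% to 53.2%, above the share over all regions. Losses from pNE over all regions were 21.9%, 21.1% and 8.32%. POU3F2 lost 21.6%, 12.7% and 12.3%, POU3F3 lost 23.9%, 23.9% and 9.76%, and POU3F1 lost 16.1%, 19.0% and 9.59%.

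Single regions show how these steps differed between media. At POU3F2, chr6:98971238-98971714, 137 kb downstream, was open in hPSC, DE, aNE, pNE and aNE_T, with peaks of 140, 405, 301, 342 and 259 bp, and closed in the other 5 day 4 lists. Inside FBXL4, chr6:98897453-98898480 was closed in hPSC and aNE. It had a peak of 973 bp in aNE_H and 986 bp in pNE_M, and of 132 to 437 bp in the other 6 open lists. At POU3F3, chr2:105001461-105001914 in MRPS9-AS2 was open from hPSC to pNE and in aNE_T and aNE_M, and closed in aNE_H and all pNE-derived lists. At POU3F1, chr1:38050769-38051319, 4.25 kb upstream, was closed in hPSC, aNE and aNE_T, with peaks of 544 bp in aNE_H and 542 bp in pNE_T.

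Cells of different origin in the same medium were compared next. At POU3F2, regions open in the pNE-derived list only made up 17 of 44 in telencephalon medium (38.6%), 19 of 52 in midbrain medium (36.5%) and 25 of 55 in hindbrain medium (45.5%). All regions gave 27.2%, 22.8% and 42.3%. Regions open in the aNE-derived list only made up 9.09%, 7.69% and 9.09% at POU3F2, against 20.8%, 24.1% and 9.47% of all regions. At POU3F3 the pNE-derived side had 28.3%, 16.9% and 34.6%, and the aNE-derived side had 15.0%, 28.2% and 8.64%. At POU3F1 the pNE-derived side had 16.9%, 16.4% and 32.0%, and the aNE-derived side 26.8%, 23.9% and 12.0%.

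Across the 3 media, a region was counted for an origin where all 3 of its lists were open and none of the 3 lists of the other origin was. At POU3F2, 7 of the 69 regions open in any day 4 list were open in all pNE-derived and no aNE-derived lists (10.1%, interval 5.00% to 19.5%). Over all regions 2.77% were. POU3F1 had 2 of 94 (2.13%) and POU3F3 had 2 of 102 (1.96%). The reverse held for 2 regions at POU3F1, 1 at POU3F2 and 1 at POU3F3, or 2.13%, 1.45% and 0.980%, with 0.752% over all regions. The share of POU3F2 lay above that of all regions, and those of the other two genes lay near it.

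All 7 of these POU3F2 regions were also closed in hPSC, DE, aNE and pNE, so they were open only in the 3 pNE-derived lists. They made up 8.97% of the 78 regions, against 1.51% of all regions. Of 20037 protein-coding genes 0.364% had 7 or more such regions in the same window, a description in which neighbouring genes share windows. The 7 lay on both sides of POU3F2, 3 upstream and 4 downstream, and 6 were outside any annotated gene. POU3F2 was the nearest protein-coding gene of 4, and FBXL4 of the other 3. None of the 3 genes had a region open only in the 3 aNE-derived lists, a pattern held by 0.0578% of all regions.

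Upstream they were chr6:98717941-98718481 at 116 kb from the start, chr6:98725414-98725634 at 109 kb and chr6:98779646-98779991 at 54.8 kb. The first had peaks of 439 bp in pNE_T, 435 in pNE_M and 510 in pNE_H. The second had peaks of 199, 176 and 109 bp in the same lists, and the third 130, 146 and 346 bp. Only the first of these was wide in all 3 lists.

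Downstream they were chr6:98844279-98844498 at 9.81 kb, chr6:98858761-98859240 at 24.4 kb, chr6:98880319-98881258 at 46.2 kb inside FBXL4, and chr6:98998220-98998929 at 164 kb. The FBXL4 region was the widest of the 7, with peaks of 940 bp in pNE_T, 256 in pNE_M and 572 in pNE_H. The region at 164 kb had peaks of 665, 204 and 706 bp, that at 24.4 kb had 467, 148 and 441 bp, and that at 9.81 kb had 117, 220 and 157 bp. At the 3 regions farther out pNE_M had the narrowest peak. With at least 50% of a region required to be covered by peaks, 3 of 69 POU3F2 regions met the rule, 4.35% against 2.17% of all regions. With only the widest 50% of the peaks of each list, 2 of 37 did (5.41%), against 2.94%. In lists cut to equal size it was 3 of 53 (5.66%), against 2.51%. Without the pNE_H list, the longest, 9 of 62 POU3F2 regions were open in both pNE-derived lists left and in no aNE-derived list, 14.5% against 3.71%.

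The region of the opposite kind at POU3F2 was chr6:98842455-98843229, 8.27 kb downstream of the start and outside any gene. Its peak was 747 bp in hPSC, 200 in DE, 272 in aNE and 370 in pNE, and 165 in aNE_T, 633 in aNE_M and 486 in aNE_H. None of the 3 pNE-derived lists had a peak there. It was thus open in the pluripotent cells, in DE and in both day 2 lists, and closed in the day 4 lists of 1 origin. Within the next few kb downstream lay the region at 9.81 kb, open in those 3 lists alone, and the constant region at 10.9 kb.

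The same pattern, open in 7 lists and closed in the 3 pNE-derived ones, occurred at 2 POU3F1 regions and in 0.158% of all regions. One was chr1:38097177-38097671, 50.6 kb upstream in MIR3659HG, and the other chr1:38244018-38244604, 198 kb upstream. The 2 POU3F1 regions open only in pNE-derived lists were chr1:37844114-37845300, inside the metal-response factor gene MTF1 at the edge of the window, and chr1:38133141-38133401 in LINC02786. The MTF1 region had peaks of 1174 bp in pNE_T, 683 in pNE_M and 1163 in pNE_H. At POU3F3 such regions were chr2:104943772-104944109 in MRPS9-AS2 and chr2:105064253-105064720 in MRPS9. The POU3F3 region of aNE-derived lists was chr2:104673289-104673753, 181 kb upstream, which was also open in pNE.

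A second pattern was noticed in the map and counted afterwards. At POU3F3, 9 of 113 regions were open in pNE, aNE_M and aNE_H and closed in aNE and aNE_T (7.96%, interval 4.25% to 14.4%). Over all regions 3.14% were. POU3F2 had 4 such regions (5.13%) and POU3F1 had 2 (1.89%). The opposite, open in aNE and aNE_T and closed in pNE, aNE_M and aNE_H, was found at 6 of 106 POU3F1 regions (5.66%, 2.62% to 11.8%). It was found at 0 of 78 POU3F2 and 0 of 113 POU3F3 regions, and at 1.25% of all regions. The counts of 0 have upper Wilson limits of 4.69% and 3.29%. Of protein-coding genes, 1.16% had 9 or more regions of the first kind and 0.674% had 6 or more of the second.

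All 9 POU3F3 regions were open in pNE_H as well, 5 in pNE_M and 3 in pNE_T, and 8 were nearer to POU3F3 than to another protein-coding gene. They lay between 197 kb upstream and 202 kb downstream, 3 upstream and 6 downstream, and none was within 10 kb of the start. The pNE_H list is the longest, and the share of all regions of this pattern open in it was not counted. Beside the PANTR1 region described above, a pair of neighbours lay in the annotated body of POU3F3. One, chr2:104888912-104889546 at 35.1 kb, had peaks of 369 bp in pNE, 476 in aNE_M and 549 in aNE_H, and of 242, 112 and 109 bp in hPSC, DE and pNE_H. The other, chr2:104889960-104890331 at 36.0 kb, had peaks of 372 bp in pNE, 213 in aNE_M, 179 in aNE_H and 288 in pNE_H. With only the widest 50% of peaks 2 of 62 POU3F3 regions followed this pattern (3.23%, against 3.05% of all regions).

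Of the 6 POU3F1 regions of the opposite pattern, 5 were open in DE and 4 in hPSC, and 3 were nearest to POU3F1. The widest was chr1:38153258-38154378, 107 kb upstream, with peaks of 353 bp in hPSC, 521 in DE, 456 in aNE and 197 in aNE_T. It was open again in pNE_T with 188 bp and in pNE_M with 760 bp, and was the only one of the 6 open in a pNE-derived list. Another, chr1:37954978-37955535, had peaks of 128 bp in hPSC, 558 in DE, 383 in aNE and 193 in aNE_T. At 120 kb upstream, chr1:38166508-38166803 had 293, 221, 160 and 122 bp in those lists. At POU3F1 these regions were thus mostly open before day 2. The share of all regions of this pattern that were open before day 2 was not counted. With 50 kb on either side of the gene in place of 200 kb, 0 of 35 POU3F1 regions had this pattern. With the widest 50% of peaks 1 of 70 had it (1.43%, against 1.26% of all regions).

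**Figure D4:**
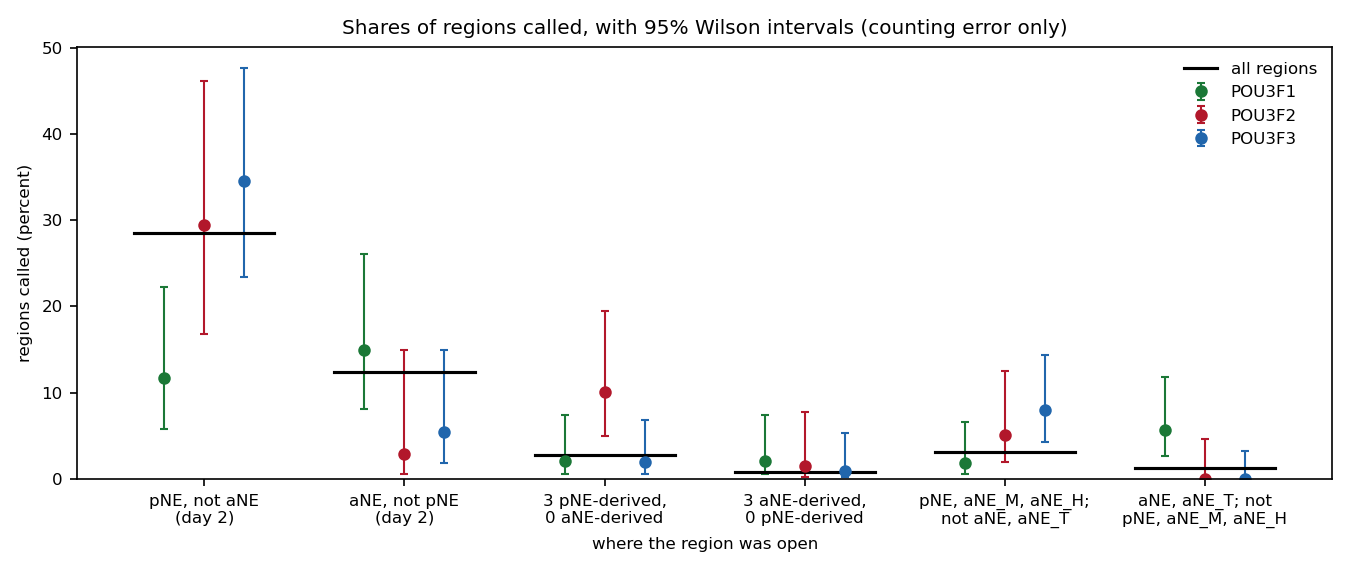
Share of the regions of POU3F1 (green), POU3F2 (red) and POU3F3 (blue) called in 6 comparisons (horizontal axis), in percent, with Wilson 95% intervals that cover counting only; the black bars are the shares over all regions. The share of POU3F2 open in the 3 pNE-derived lists only of the day 4 lists, 10.1%, has an interval above the bar at 2.77%.

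Regions closed in hPSC and DE and open in all 6 day 4 lists were few. POU3F3 had 3 (2.65%), POU3F2 had 1 (1.28%) and POU3F1 had 0, against 1.10% of all regions. The widest was chr2:104701394-104702831, 152 kb upstream of POU3F3 and outside any gene. Its peak was 148 bp in aNE, 661 in pNE, 1014 in aNE_T, 711 in aNE_M and 577 in aNE_H. In the pNE-derived lists it was 951 bp in pNE_T, 766 in pNE_M and 1398 in pNE_H. The other two at POU3F3 were chr2:104834516-104834910 in PANTR1 and chr2:104929581-104929980. That of POU3F2 was chr6:98667012-98667385, 167 kb upstream, with peaks of 234 to 374 bp in pNE and the 6 day 4 lists.

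The other POU genes and a list of partners and targets were counted in the same windows. All 12 of the other POU genes had a window, with a median of 90.5 regions, 5 open in aNE only of the day 2 lists and 11.5 in pNE only. The same 3 medians were 89, 5 and 9 over 20037 protein-coding genes. Taken over POU3F1, POU3F2 and POU3F3 together they were 106, 3 and 10. More pNE-only than aNE-only regions were found at 11 of the 12 POU genes, at 12 of 12 partners and targets, and at 15349 of 20037 genes. POU3F1, with 9 aNE-only and 7 pNE-only, went the other way, as did POU5F1, the pluripotency factor OCT4, with 6 and 0. POU3F4, the remaining class 3 gene, had 23 regions, 1 of them aNE-only and 3 pNE-only.

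Regions open only in the 3 pNE-derived lists numbered 7 at POU3F2, 6 at ZIC1, a zinc finger gene of the dorsal neural tube, and 3 at PAX6 and at POU1F1. SOX2 and SOX1 had 0. The median was 0.5 over the 12 POU genes, 0 over the 12 partners and targets and 1 over all protein-coding genes. By count of open regions, every pNE-derived list was above every aNE-derived list at POU3F2, and for example at POU4F2, POU4F3 and POU5F2 of the POU genes and at SOX3 of the partners and targets. Per 10000 open regions POU4F3 and SOX3 no longer had this order. On that scale it held at 3 of the 12 POU genes and the reverse at 4, POU2F1 and POU2F2 among them. Of the partners and targets 0 had this order per 10000 open regions and 5 had the reverse, namely SOX2, SOX1, SOX11, NES and DLL1. Over all protein-coding genes this order was found at 10.8% by count and at 6.03% per 10000 open regions. The reverse was found at 31.6% of them per 10000 open regions, so it is common.

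Genes with the most similar course over the 10 lists were found by Pearson correlation of the open regions per list, each divided by the length of the list, over 19327 genes with at least 20 regions. They describe likeness over 10 lists that all genes share. For POU3F2 they were IVNS1ABP (0.953), CTAGE9 (0.952) and ANKH (0.934). For POU3F3 they were CXCR4 (0.947), EXO1 (0.933) and LCT (0.929), of which CXCR4 and LCT are neighbours. For POU3F1 they were H2AC21, BOLA1 and H2AC20 (0.991 each), which lie side by side and share most of their regions. Among the 3 genes themselves the value was -0.55 for POU3F1 with POU3F2, -0.59 for POU3F1 with POU3F3 and 0.32 for POU3F2 with POU3F3.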

How the data were processed

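OmniATAC-seq libraries were made from 50000 cells each, 30 in all, per the labels' protocols. Of each peak the authors deposited its sequence name, start and end, in 1 list per group without a header, score, fold or p-value. The submitters' processing notes name hg38, FastQC, Bowtie2, MACS2, bedtools, featureCounts, edgeR and deepTools. Versions, the peak threshold and how replicates were joined are not given in the sources used here. Each list was assigned by its population name. Peaks off chromosomes 1 to 22, X and Y, between 3.84% and 6.31% of a list, were left out. The remaining peaks were joined on an overlap of 1 bp or more, and regions were counted within 200 kb of each gene. Gene positions and promoters came from RefSeq tables on GRCh38.p14. No count is a read depth, and no test was possible with 1 list per group.

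Members, gene lists and comparisons were chosen with earlier results of these data known. Named genes were the 3 members, 12 other POU genes, 12 partners or targets, and the 3 genes most like each member. Named regions were those over gene bodies, the 5 widest per gene, and every origin region. The widest exclusive peak per comparison more than 1 kb from any gene start or end was also named. The regions of the pattern in pNE, aNE_M and aNE_H, its opposite, and those open in all 6 day 4 lists but not before, were named after their values were seen. Motifs in the regions and protein sequences were not analysed here, and values of some single genes of the lists are not reported here.

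Alternatives were a coverage of at least 50% of the region, the widest 50% of each list, lists of equal size (their 167792 widest peaks), windows of 500 bp at peak midpoints, merging within 500 bp, flanks of 100 and 50 kb, and the nearest gene. Leaving out pNE_H was chosen after seeing the data. On simulated lists 60000 of 60000 regions were recovered with 0 wrong patterns. The simulated regions were separate and all peaks of a region overlapped, so this checks the code and not chains of partly overlapping peaks. Python 3.11.15, numpy 2.4.6, pandas 2.3.3, scipy 1.17.1 and matplotlib 3.10.9 were used.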

Additional observations from a re-analysis of the deposited data

Results flagged for a closer look

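The change in open regions along a shared step went one way on the aNE side and the other way on the pNE side in 9 of 21 contrasts at the 3 genes. With 1 list per group, none of these differences was tested. Several share a list, and the share of all protein-coding genes with opposite signs was not counted. Per 10000 open regions of the list the signs differed in 8 of the 21 contrasts, of which 2, both at POU3F3, are among the 9.

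At POU3F3 the move from day 2 to telencephalon medium added 7 regions on the aNE side and changed the pNE side by -1, a difference of -8 (pNE side minus aNE side). The move to midbrain medium added 23 and changed the pNE side by -1, a difference of -24. These 2 had opposite signs on both scales, per 10000 open regions at 0.01 and -0.19 for telencephalon and 0.59 and -0.17 for midbrain medium. The 0.01 is only the step from 2.28 in aNE to 2.29 in aNE_T, so its sign carries little weight.

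In the other 7 the values per 10000 open regions did not have opposite signs. From DE to day 2 the difference was 9 at POU3F2, from -7 on the aNE side and 2 on the pNE side, and 16 at POU3F3, from -10 and 6. From midbrain to hindbrain medium it was 20 at POU3F1, 5 at POU3F2 and 29 at POU3F3. At POU3F1 it was also 17 from day 2 to hindbrain medium and 22 from telencephalon to hindbrain medium. Every contrast of these 7 that ends in hindbrain medium rests on pNE_H, the list with the most open regions, 300729. From midbrain to hindbrain medium the whole lists also went opposite ways. They changed from 205701 to 191778 open regions on the aNE side and from 202359 to 300729 on the pNE side.

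The remaining 6 were opposite per 10000 open regions and not by count. The values of the aNE and then the pNE side were 0.25 and -0.47 at POU3F1 from DE to day 2. At POU3F2 they were -0.08 and 0.25 from day 2 to telencephalon medium, 0.04 and -0.05 to hindbrain medium, and 0.12 and -0.30 from telencephalon to hindbrain medium. At POU3F3 they were 0.48 and -0.23 from day 2 to hindbrain medium and 0.47 and -0.04 from telencephalon to hindbrain medium.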

How the results depend on the processing

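No paired analysis was possible because each group has 1 list, and for the same reason no replicate could be left out. Of 225 recomputed main values 167 moved within their interval or within 1.5 times, 52 moved further and 6 changed sign. For shares that rest on few regions the interval is wide. The POU3F2 aNE-only share, for example, rose from 2.94% to 13.3% with equal size and is among the 167. The cause of these moves was not tested. Narrower flanks and shorter lists also leave a smaller number of regions.

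Mean open regions in the pNE-derived minus the aNE-derived lists were 1 at POU3F1, 16.0 at POU3F2 and 7 at POU3F3. At POU3F1 this became -3.33 with 50% coverage, -1.33 with the widest 50% of peaks and -4 with lists of equal size, and 2 with 500 bp windows, 2.33 with merging within 500 bp, 3.67 with 50 kb flanks and 2.67 by nearest gene. At POU3F3 it became -5.33 with equal size, 2.67 with the widest 50%, 3.33 with merging, 2.33 and 1.67 with 100 and 50 kb flanks and 3 by nearest gene. At POU3F2 it kept its sign at 6 with the widest 50%, 8 with equal size, 5.33 and 3 with the narrower flanks and 10.3 by nearest gene.

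The pNE-only minus aNE-only regions of day 2 were -2, 9 and 16. At POU3F1 they became -6 with 50% coverage, -1 with the widest 50%, -9 with equal size, 0 with 500 bp windows and with merging, -1 with 100 kb flanks, 2 with 50 kb flanks and 1 by nearest gene. At POU3F2 they were 2 with the widest 50% and with equal size, 4 and 1 with the narrower flanks and 4 by nearest gene. At POU3F3 they were 8 with the widest 50% and 10 with 50 kb flanks. With equal size 19.8% of all regions were pNE-only and 19.4% aNE-only, in place of 28.5% and 12.4%.

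With 50% coverage, regions open in all lists fell to 11.3%, 7.69% and 10.7% at the 3 genes (6.72% of all regions). The POU3F1 aNE-only share was 33.3% (19.1% over all regions) and the POU3F2 share of pNE-derived regions 4.35% (2.17%). The aNE-derived shares of POU3F2 and POU3F3 were 0 (0.92% over all regions). With 50 kb flanks, open in all lists rose to 45.7% at POU3F1 and 40.0% at POU3F2 (16.5% over all regions). The aNE-only share of POU3F1 was 4.55% (12.4% over all regions) and the pNE-only share of POU3F2 16.7% (28.5%). Both origin shares and the aNE with aNE_T share of POU3F1 were then 0, as was the aNE-derived share of POU3F3. By nearest gene POU3F2 had 16.7% pNE-only and 0 aNE-only, with 28.5% and 12.4% over all regions. With the widest 50% the aNE with aNE_T share of POU3F1 was 1.43% (1.26% over all regions). The pNE, aNE_M and aNE_H share of POU3F3 was 3.23% (3.05% over all regions). The aNE-derived shares of POU3F2 and POU3F3 and the pNE-derived share of POU3F3 were then 0. The last was also 0 with equal size. The aNE-derived share was 0 with merging at POU3F2 and with 100 kb flanks at POU3F3. Without pNE_H the 9 values recomputed stayed in their intervals, but the POU3F1 aNE-derived share rose from 2.13% (2 of 94) to 4.71% (4 of 85), with 0.752% and 2.38% over all regions. Read depth and the peak threshold are unknown, so a closed region is only one without a listed peak.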
